A study of Mus musculus with 12 samples.

Results

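H3K4me3 peaks around 10 genes of the Notch pathway were read from 4 peak lists from the embryonic mouse forebrain. The genes were chosen by name and not by their peaks, although earlier results of these data were known. They are 10 of the 21951 protein-coding genes of the annotation. The receptors were Notch1, Notch2 and Notch3, the ligands were Dll1, Dll3 and Jag1, the nuclear partner was Rbpj, and the targets were Hes1, Hes5 and Hey1. H3K4me3 is a histone mark of promoters that are active or poised. It was mapped with CUT&Tag, in which an antibody brings a transposase to chromatin carrying the mark and the released fragments are sequenced. Nuclei came from wild-type C57BL/6J embryos, from tissue dissected out of the medial, lateral and caudal ganglionic eminences (MGE, LGE and CGE) and the somatosensory cortex (CTX). The age is E12.5 by the methods of the study, while the protocol given with the samples names E14.5 as well. Each region had 2 biological replicates, and the libraries numbered 3 (MGE), 2 (LGE), 4 (CGE) and 3 (CTX). The authors merged the replicates of a region before calling peaks, so every value below comes from 1 list per region and carries neither a replicate error nor a test. Each dissection also mixes progenitors and young neurons, and a wider peak cannot be told apart from a mark carried by more of the cells.

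Notch signalling passes between touching cells. A ligand of the Delta or Jagged type on 1 cell binds a Notch receptor on its neighbour, the receptor is cut, and its inner fragment travels to the nucleus, where it joins the DNA-binding protein Rbpj and turns on Hes and Hey genes. In the ventricular zone of the forebrain the Hes repressors hold radial glia as progenitors, while cells that leave for neurogenesis carry Dll1 and activate Notch in the cells beside them.

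Sequence is shown here for promoters with a letter match to sites known from this pathway. RefSeq promoters of build GRCm38.p6 were found for 8 of the 10 members, with 10 starts, and not for Hes1 and Hey1. Only the 250 bases before each start were searched, on both strands, for TGGGAA (the core bound by Rbpj), for CAGCTG (an E box, a kind of site that bHLH factors bind) and for CACNAG (the N box bound by Hes repressors). In the member promoters no match of a motif overlapped a match of another. TGGGAA was present in 21.6% of 32841 RefSeq promoters and at 2 or more places in 2.76%. Hes5, a target, had TGGGAA 226 and 82 bases before its start, on opposite strands, an arrangement with both strands represented that 1.27% of all promoters had. The Hes5 promoter, chr4:154960673-154960922 on the plus strand, is printed with the matches in capitals, a match on the other strand reading TTCCCA.
Hes5 promoter: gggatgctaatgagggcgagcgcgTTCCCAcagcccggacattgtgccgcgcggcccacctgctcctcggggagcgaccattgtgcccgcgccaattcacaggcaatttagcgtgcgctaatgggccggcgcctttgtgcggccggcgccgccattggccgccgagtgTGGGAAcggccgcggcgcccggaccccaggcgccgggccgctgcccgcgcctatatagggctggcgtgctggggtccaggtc
The 250 bases lay wholly under a peak in MGE, CGE and CTX, whereas the LGE peak began 35 bases before the start and covered only those 35. Rbpj itself also had 2 matches before the start at chr5:53590346, 149 and 65 bases away and again on opposite strands, shown as chr5:53590185-53590214 and chr5:53590269-53590298.
Rbpj first match: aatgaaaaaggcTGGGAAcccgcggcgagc
Rbpj second match: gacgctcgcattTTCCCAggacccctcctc
CAGCTG was present in 13.0% of promoters. Among the members it was found at all 3 ligands, 1 start each, and at none of the receptors, Rbpj or Hes5. It stood 132 bases before the upstream start of Dll1, 7 before a start of Dll3 and 82 before that of Jag1. These RefSeq starts differ from the principal starts of the annotation used for the peaks, chr7:28302238 (Dll3) and chr2:137116644 (Jag1). From those, the Dll3 and Jag1 matches lie inside the gene and not upstream. The Dll1 promoter, chr17:15376933-15377182, is shown whole, and the matches at Dll3 (chr7:28301775-28301804) and Jag1 (chr2:137116585-137116614) with their flanks. All are on the minus strand.
Dll1 promoter: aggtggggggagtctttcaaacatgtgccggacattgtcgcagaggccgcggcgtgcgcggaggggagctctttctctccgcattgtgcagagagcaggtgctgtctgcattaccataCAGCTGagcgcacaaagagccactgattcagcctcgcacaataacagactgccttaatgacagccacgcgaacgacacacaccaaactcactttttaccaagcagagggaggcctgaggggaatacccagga
Dll3 match: tccggcatccagCAGCTGcgactcctgaga
Jag1 match: ccgcgtttcatgCAGCTGatctgaaaggga
Of the 250 Dll1 bases, the peaks covered 182 (MGE), 137 (LGE), 140 (CGE) and 148 (CTX). CACNAG, present in 36.7% of promoters, was found at the 3 receptors, with 2 matches at Notch3 and 1 each at Notch1 and Notch2. Each motif was thus found at 3 of the 10 member promoters, which for TGGGAA and CACNAG is near the share of all promoters. The TGGGAA count includes 2 overlapping Rbpj promoters, with starts at chr5:53590346 and chr5:53590486, that share 1 match. For CAGCTG the share of all promoters was 13.0%, and the count rests on single matches at 3 promoters, so no excess can be read from it. These matches are letters only, and binding was not measured. The ratio of CpG found to that expected from base composition was over 0.6 at 8 of the 10 member promoters, against 33.95% of all promoters.

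The number of peaks listed was 25339 (MGE), 17284 (LGE), 17752 (CGE) and 21442 (CTX). Peaks were shorter in MGE and CTX, with medians of 563 and 701 bp, than in LGE and CGE, with 1168 and 1240 bp. The files hold no read numbers, and the methods give deeper sequencing for CGE than for MGE and LGE. Of 10 regional markers, 10 had a peak in each eminence list and 9 in CTX, where Nkx2-1, the MGE patterning factor, had none. The cortical factors Emx1 and Tbr1 had 495 and 429 covered bases in MGE but 3337 and 2878 in LGE and 3453 and 2945 in CGE, against 2969 and 1187 in CTX. Markers of 1 eminence were not confined to its list either. Nkx2-1 and Lhx6, of the MGE, had 3262 and 3057 covered bases in MGE and 3804 and 5920 in CGE. Gsx2, of the LGE, had 1910 in MGE, 2189 in LGE and 2209 in CGE. Ebf1, also of the LGE, had 2425 in LGE and 4775 in CGE. Nr2f2, of the CGE, had most in CGE (12460), and Dlx1 and Dlx2, of all eminences, fewest in CTX (1307 and 1128). By percentile, Nkx2-1 was highest in MGE (99.2) and Emx1 in CTX (98.5). Lhx6 was highest in CGE (99.7), Tbr1 in LGE (95.4) and Gsx2 in MGE (92.9, against 89.1 in LGE). Neurod6, of cortical neurons, had 242 covered bases in CTX, fewer than in any eminence list. The part of depth, peak width and neighbouring tissue in the values below was not tested.

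All 10 members had a peak within 5 kb of an annotated transcription start site (TSS) in all 4 lists. Of all protein-coding genes, the share with a peak was 65.0% (MGE), 64.2% (LGE), 64.6% (CGE) and 63.8% (CTX), and 61.3% had 1 in every list. The bases under peaks in this window are called covered bases, and each gene was ranked by them among all protein-coding genes of its list, as a percentile. The top 10% held 6 members in the MGE list (10.0% of all genes), 7 in that of LGE (9.99%), 8 in that of CGE (10.0%) and 6 in that of CTX (9.99%). Notch1, Dll1, Jag1, Rbpj and Hes5 were in the top 10% of every list. The share of all genes that were so in every list was not counted, and it can be no more than 9.99%. The median percentile of the 10 members was 94.2 (MGE), 97.0 (LGE), 96.3 (CGE) and 97.1 (CTX). For Hes5, part of this rank came from bases that lie nearer to another gene, as described with the targets.

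**Figure D1:**
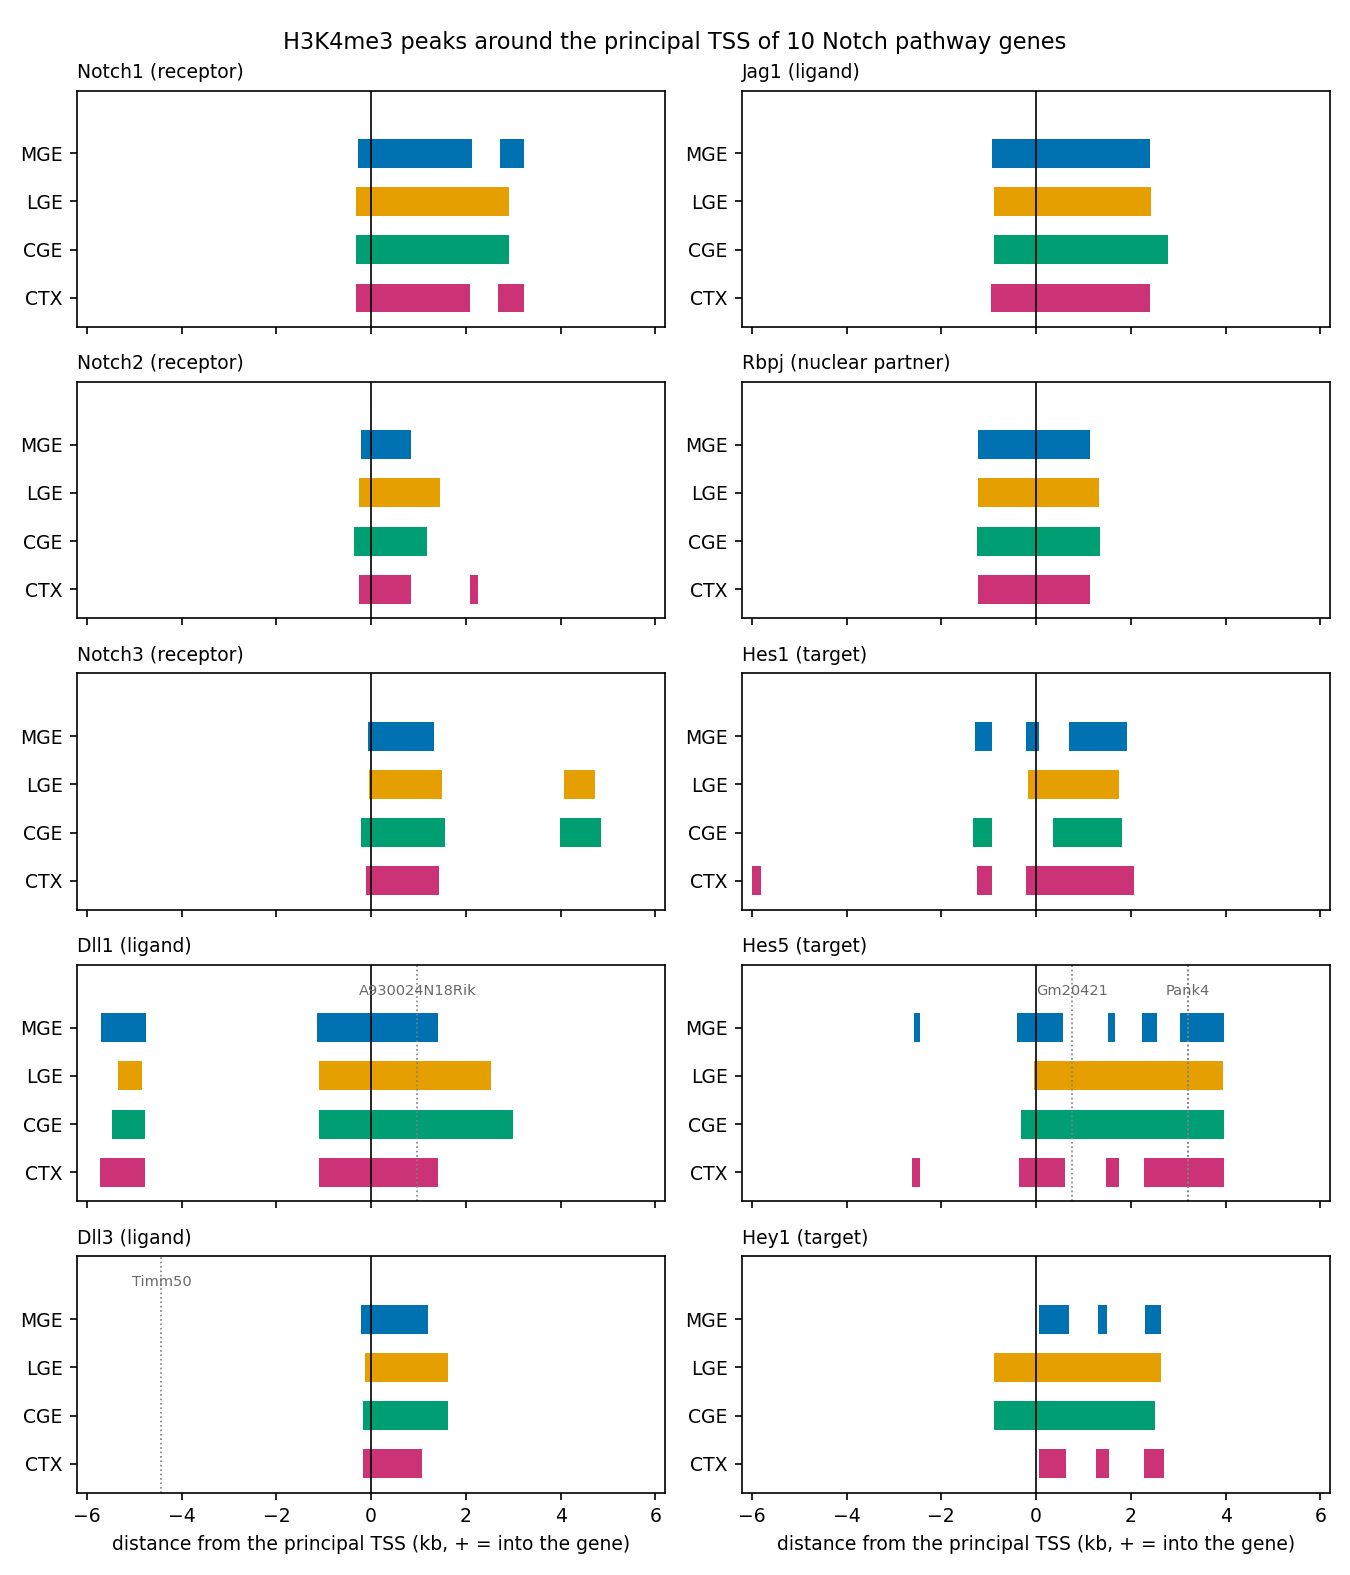
Peaks of each list (coloured bars, 1 row per list) within 6 kb of the principal TSS of the 10 members (solid line), with distance in kb on the x axis, positive into the gene. Dotted lines mark TSSs of neighbouring genes. Hey1 and Hes5 lie under 1 long peak in LGE and CGE and under several shorter ones in MGE and CTX, and Dll1 has a separate upstream peak in all 4 lists.

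The receptors ranked far apart. Notch1, the main receptor of forebrain radial glia, had 3044 covered bases (MGE), 3241 (LGE), 3229 (CGE) and 2961 (CTX), at percentiles of 98.9, 96.9, 95.9 and 98.5. The 4 lists differed by at most 1.09-fold. The mark did not sit at the outermost 5′ end of the annotated gene but at the principal TSS, the start of the transcript that the annotation tags as principal, chr2:26503822, which lies 12841 bp further in, and it ran from about 300 bp upstream into the first intron. At the outermost end there was only a 140-bp peak, in MGE. In LGE and CGE the Notch1 peak was a single run of 3241 and 3229 bp. In MGE and CTX it broke into a peak of 2406 or 2393 bp and an intronic piece of 498 or 539 bp that began about 2.7 kb past the principal TSS.

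Notch2, which overlaps Notch1 in progenitors, was the least covered receptor in every list. It had 1054 covered bases (MGE), 1721 (LGE), 1533 (CGE) and 1277 (CTX), at percentiles of 67.9, 79.2, 69.1 and 76.6, and was in no list in the top 10%. Its peak had the highest fold of the 3 receptors in each list. The fold enrichment, the authors' ratio of reads to the estimated background, had percentiles of 62.7 (MGE), 70.0 (LGE), 69.5 (CGE) and 65.7 (CTX) among the peaks of the list. Notch3, a receptor best known from blood vessel walls and also present in neural progenitors, had 1394 covered bases (MGE), 2195 (LGE), 2642 (CGE) and 1550 (CTX). Part of the larger LGE and CGE values was a second peak in an intron, about 4 kb past the TSS, of 652 bp in LGE and 865 bp in CGE, which neither MGE nor CTX had. The peak at the Notch3 TSS alone was 1394, 1543, 1777 and 1550 bp wide in the order MGE, LGE, CGE and CTX.

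Dll1, the ligand of cells entering neurogenesis, had the most covered bases of the members in every list. In each list some alternative put another member first, such as Jag1 with principal TSSs only in MGE (3330 against 2811 bases) and CTX (3359 against 2755). Dll1 had 3522 covered bases (MGE), 4147 (LGE), 4777 (CGE) and 3471 (CTX), and its percentile stayed between 98.8 and 99.4. The main peak, 2553, 3628, 4094 and 2519 bp wide in that order, reached about 1.1 kb upstream of the principal TSS in all lists and went further into the gene in LGE and CGE. It also lay over the start of A930024N18Rik, a long noncoding RNA on the opposite strand 976 bp inside Dll1, so the mark of the 2 genes cannot be told apart there.

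A second Dll1 peak stood upstream in all 4 lists, 969 bp (MGE), 519 (LGE), 683 (CGE) and 952 (CTX) wide. It lay at least 3847 bp from any annotated TSS. Its fold was low, between 1.75 and 2.55, within the lowest 1.24% of its list in every case, and its −log10 q ranged from 1.30 in CTX to 16.5 in CGE. The 4 lists shared the 519 bases of the LGE peak, chr17:15380807-15381325. The middle 300 bases, chr17:15380917-15381216, are printed on the strand of Dll1 because this element was found in every region, with CAGCTG and TGGGAA (as TTCCCA) in capitals.
Dll1 upstream peak: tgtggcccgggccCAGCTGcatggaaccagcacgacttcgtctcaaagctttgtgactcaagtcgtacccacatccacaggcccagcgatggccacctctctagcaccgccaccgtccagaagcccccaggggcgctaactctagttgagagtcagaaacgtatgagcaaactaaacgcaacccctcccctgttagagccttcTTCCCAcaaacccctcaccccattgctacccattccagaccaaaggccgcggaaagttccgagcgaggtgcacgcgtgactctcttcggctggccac
Single matches of this kind were common, as 17.8% of 17287 CGE peak middles of the same length held CAGCTG and 20.8% held TGGGAA.

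Dll3, a Delta relative that acts inside the cell and does not activate Notch in neighbours, had 1407 covered bases (MGE), 3407 (LGE), 3764 (CGE) and 1731 (CTX). The percentile was 82.3, 97.4, 97.7 and 89.4. The peak at its principal TSS varied less, with 1407, 1757, 1787 and 1253 bp. The rest came from a peak over or near a downstream start inside Dll3, of 462, 998 and 154 bp in LGE, CGE and CTX, and from peaks at or near the start of the next gene, Selenov, in LGE, CGE and CTX. With bases nearer to another protein-coding gene left out, Dll3 had 1407, 2219, 2785 and 1407 bases in the order MGE, LGE, CGE and CTX. Jag1, a ligand of the Serrate type, was the steadiest ligand in bases, with 1 peak per list. It had 3330 bases (MGE), 3329 (LGE), 3672 (CGE) and 3359 (CTX), a spread of 1.10-fold, and the peak began between 891 and 960 bp upstream of the TSS.

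Rbpj, the DNA-binding protein through which the Notch receptors act, had 1 peak per list, of 2359 bp (MGE), 2565 (LGE), 2609 (CGE) and 2366 (CTX), a 1.11-fold spread. Its percentile was 96.6, 93.4, 92.1 and 96.3. The upstream edges of the 4 peaks lay between 1216 and 1250 bp before the principal TSS. As at Notch1, the mark sat at an internal cluster of starts, with 4 TSSs under the peak, 124319 bp inside the outermost 5′ end of the gene, and no peak was listed at that end. Notch1 has 11 annotated TSSs and Rbpj 12, so their windows were 37756 and 63647 bases long against a median of 12812 over all genes. Counting principal TSSs only, they remained at percentiles of 98.0 to 99.5 and 95.3 to 98.4.

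**Figure D2:**
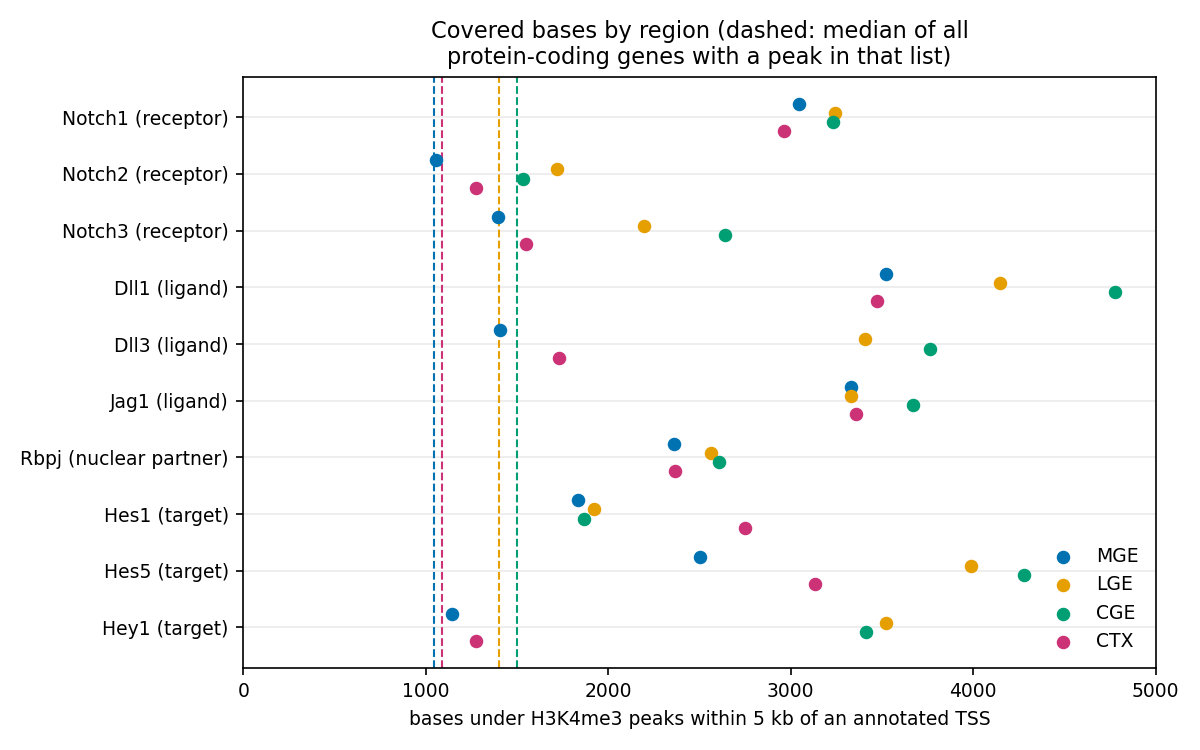
Bases under H3K4me3 peaks within 5 kb of an annotated TSS (x axis) for each member, 1 point per list. Dashed lines give the median of all protein-coding genes with a peak in that list, 1044 (MGE), 1402 (LGE), 1497 (CGE) and 1088 (CTX). Jag1, Rbpj and Notch1 lie close together over the lists, and Hey1 and Dll3 spread widest.

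Of the 10 members, the targets Hey1 and Hes1 had the widest percentile ranges over the lists, and their highest lists differed. Hes1, a repressor that oscillates in neural progenitors, had 1835 covered bases (MGE), 1924 (LGE), 1867 (CGE) and 2749 (CTX). CTX had the most bases, and the percentiles were 91.8, 84.3 and 80.2 in MGE, LGE and CGE and 97.9 in CTX. Joining peaks less than 1 kb apart gave 3203 bases and a percentile of 98.5 in MGE, beside 3467 bases and 98.9 in CTX, and left LGE and CGE at 1924 and 1867 bases, so MGE then stood with CTX and not with the other eminences. In CTX 1 peak of 2277 bp ran from 204 bp before the principal TSS, chr16:30065340, over most of the gene. The LGE peak there was 1924 bp, the largest CGE peak began 363 bp past the TSS and was 1449 bp, and in MGE a 257-bp peak at the TSS stood apart from a 1220-bp peak further in. A short peak at an upstream start of Hes1, about 1 kb away, was found in MGE (358 bp), CGE (418 bp) and CTX (317 bp) and not in LGE.

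Hes5, the Notch target most tightly tied to receptor activity in radial glia, had 2500 covered bases (MGE), 3986 (LGE), 4279 (CGE) and 3131 (CTX). Its percentile hardly moved, from 97.3 to 98.8. In LGE and CGE 1 peak ran from Hes5 through the start of the antisense transcript Gm20421 and on over the starts of Pank4, 3200 bp and more downstream, a gene of the pantothenate kinase family. In MGE and CTX the same stretch held separate peaks, those at the Hes5 start 976 and 974 bp wide. Joining peaks less than 1 kb apart gave 4490 bases in MGE and 4507 in CTX, more than in LGE and CGE, so the order of the lists turned. Without the bases nearer to Pank4, Hes5 had 1201 bases (MGE), 1660 (LGE), 1943 (CGE) and 1305 (CTX), at percentiles of 81.7, 84.0, 87.6 and 84.3, and left the top 10% in all 4 lists.

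Hey1, a Hes relative expressed in progenitors and blood vessels, varied most. It had 1146 covered bases (MGE), 3520 (LGE), 3411 (CGE) and 1277 (CTX), a 3.07-fold spread, with percentiles of 72.5, 97.7, 96.6 and 76.6. LGE and CGE each had 1 peak that began about 0.9 kb upstream of the TSS and covered most of the gene. MGE and CTX each had 3 short peaks, the largest of 621 and 571 bp, and none reached the principal TSS, although other annotated starts of Hey1 lay under the largest. Inside the gene, the outer pieces ended near where the long peaks ended. On the upstream side the MGE and CTX peaks stopped 70 and 69 bp past the TSS, short of the upstream bases under the long peaks. Joining peaks less than 1 kb apart gave 2566 bases and a percentile of 96.6 in MGE and 2635 bases and 96.9 in CTX, which removed most of the difference. The short MGE and CTX peaks just inside the TSS were high in their own lists, with folds of 7.03 and 7.92 at fold percentiles of 79.4 and 82.8. The long LGE and CGE peaks, with folds of 3.37 and 3.72, were at fold percentiles of 11.0 and 21.6 in theirs.

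**Figure D3:**
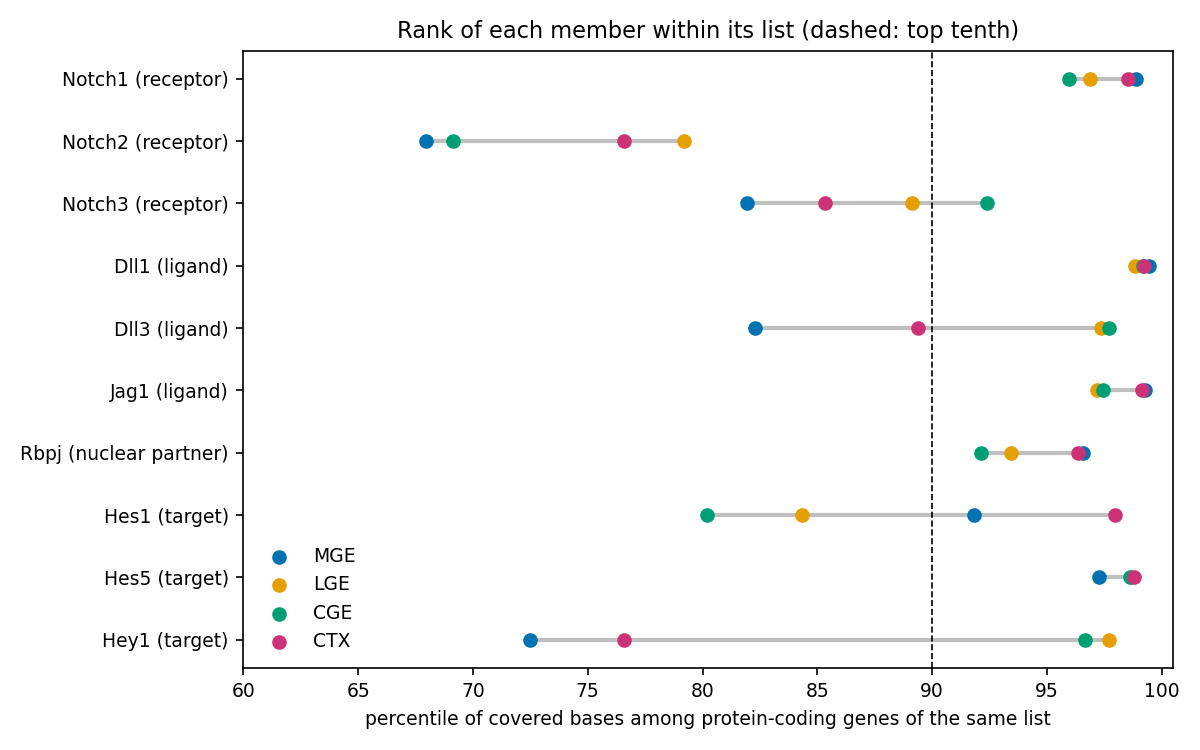
Percentile of covered bases among the protein-coding genes of the same list (x axis), 1 point per list, with a grey line from the lowest to the highest list of each member. The dashed line is the 90th percentile. Dll1, Hes5 and Jag1 stay within about 2 points, and Hey1 runs from 72.5 in MGE to 97.7 in LGE.

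By class, the ligands had the highest median percentile in MGE (99.3), CGE (97.7) and CTX (99.1), and the targets in LGE (97.7, with the ligands at 97.4). The receptors stood at 81.9 (MGE), 89.1 (LGE), 92.4 (CGE) and 85.3 (CTX), the lowest of these 3 classes. The targets stood at 91.8, 96.6 and 97.9 in MGE, CGE and CTX. Each class holds only 3 genes, and within every class the members spanned more than the distance between the class medians of ligands and targets. The place of the targets in LGE was lost with windows of 2 kb or 10 kb around the TSSs. The order of receptors and targets turned when bases nearer to another protein-coding gene were left out, with targets at 81.7, 89.3, 87.6 and 84.3 and receptors at 87.4, 92.7, 94.8 and 90.1 in the order MGE, LGE, CGE and CTX.

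Across regions, 6 members had most covered bases in CGE, against 49.4% of all genes, with 3 in LGE (Notch1, Notch2 and Hey1) and Hes1 in CTX. Of all genes, 11.1% had most bases in LGE, 3.38% in CTX and 3.31% in MGE. Genes with no peak in any list can have most bases in none. They are counted in every share and median of all genes in this paragraph. By percentile, which takes the wider CGE peaks into account, 2 members were highest in CGE, Notch3 and Dll3, against 11.7% of all genes, a share that also counts genes without peaks. The percentile range over the 4 lists was 20 or more for 1 member, Hey1 (25.2), against 12.8% of genes, and the median range was 7.46 for members and 5.94 for all genes. Comparing the mean of the 3 eminences with CTX, Hey1 stood 12.3 percentile points above CTX, where 8.17% of genes stood 10 or more above. Hes1 stood at −12.49 points, where 6.91% of genes were 10 or more below. The other 8 members lay between −4.52 and 3.04 points from CTX. For Hey1 the 3 eminences were not alike, since MGE lay below CTX. The difference of 10 points was no longer reached by Hey1 with joined peaks, by Hes1 with principal TSSs only, or by either without bases nearer to another gene.

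Several members had more than 1 peak in a list. A count of 3 or more peaks per gene, chosen after the values were seen, was reached in MGE by Notch1, Hes1, Hes5 and Hey1, 4 members against 3.75% of genes, and in CTX by these and Dll3, 5 members against 3.25%. In LGE and CGE only Dll3 reached it, 1 member against 1.69% and 1.84% of genes. Not all of these peaks were pieces of a member's own mark. Dll3 reached 3 only with peaks at or near the start of Selenov. Some Hes5 peaks in MGE and CTX lay nearest Gm20421 or Pank4. Notch1 reached 3 in MGE only with the 140-bp peak at its outermost end. In CTX it did so only with a peak 27886 bp past the principal TSS. Its window is long, 37756 bases against a median of 12812, and the shares of genes also count genes without peaks. The largest peaks of the members were mostly wide and low among all peaks of their list. Each was picked by size, so part of its width rank is set by that choice. The largest peaks of all other genes were not ranked. Their median width percentile among peaks of the list was 90.4 (MGE), 97.4 (LGE), 96.8 (CGE) and 96.3 (CTX), while the median fold percentile was 32.9, 19.0, 21.6 and 24.2. In the widest 10% of all peaks the median fold percentile was 55.2 (MGE), 22.9 (LGE), 27.6 (CGE) and 47.5 (CTX), so in LGE and CGE low fold went with width generally. Jag1 had a peak wider than 98.9% to 99.9% of its list and folds of 3.14 to 3.27, and the long Hes5 peaks of LGE and CGE were at width percentiles of 99.7 and 99.6 and fold percentiles of 1.83 and 4.65.

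**Figure D4:**
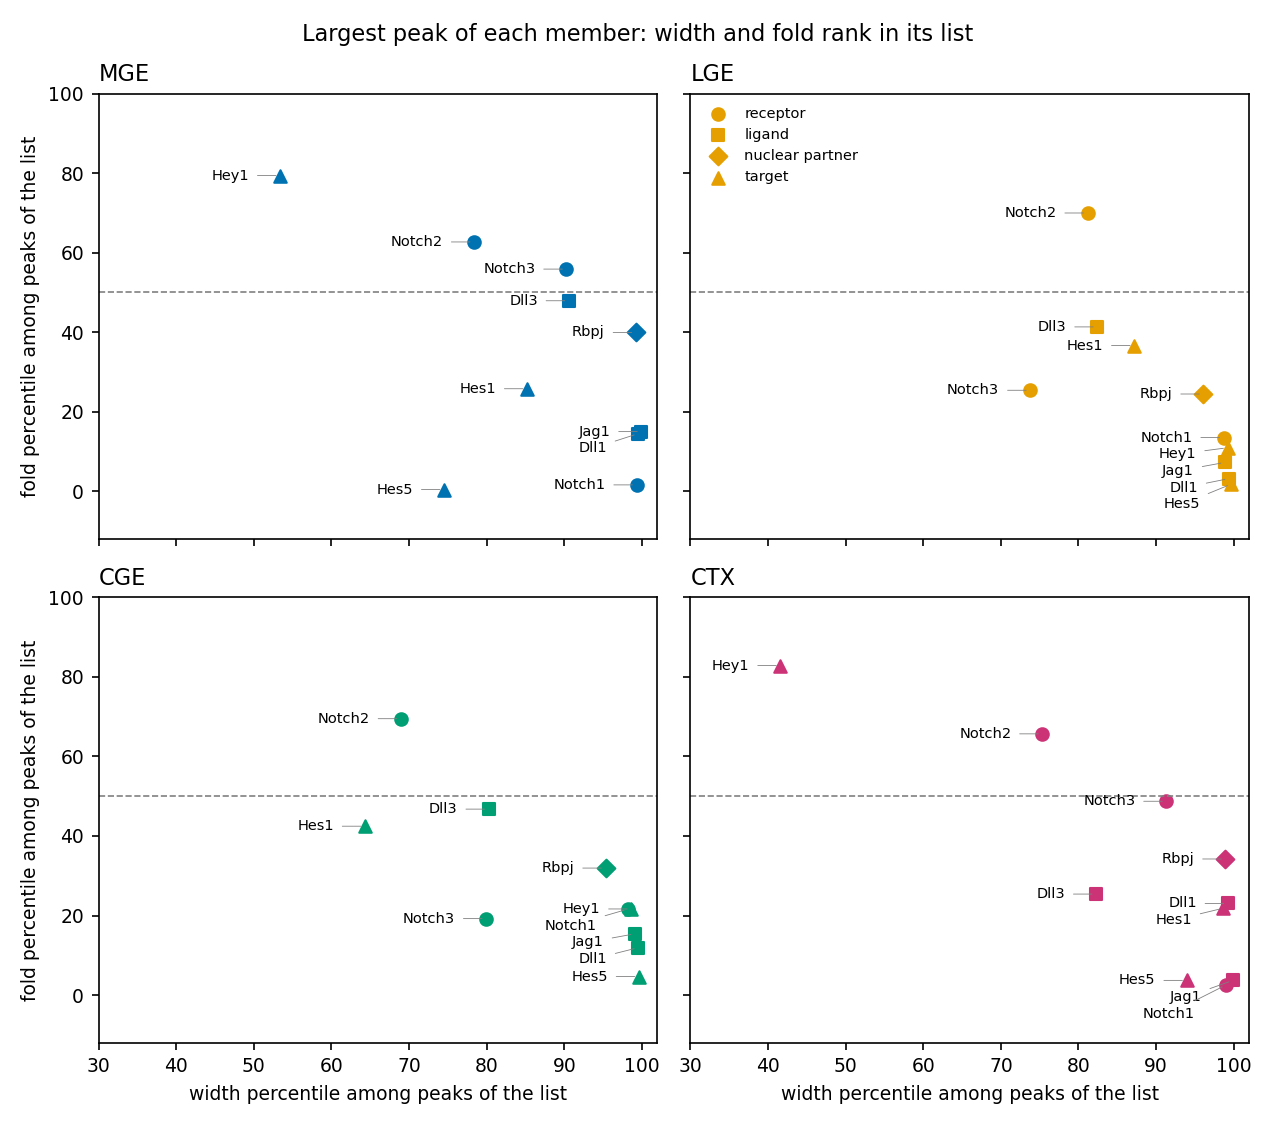
Width percentile (x axis) against fold percentile (y axis) of the largest peak of each member among all peaks of its list, 1 panel per list, with symbols for class. The dashed line is the median fold. Below it lie 7 (MGE), 9 (LGE), 9 (CGE) and 8 (CTX) members, and Notch2 lies above it in each list.

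The pathway beyond these members was read from a list of 47 further genes, namely the receptor Notch4 and genes of ligands, receptor cleavage, receptor glycosylation, traffic and turnover, the nuclear complex and further targets. Of these, 44 had a peak in all 4 lists, against 61.3% of all protein-coding genes. The top 10%, where 9.99% to 10.0% of all genes stood, held 13 (MGE), 11 (LGE), 13 (CGE) and 12 (CTX) of the 47. The median percentile of the 47 was 79.8, 83.7, 83.7 and 80.5 in the same order. Genes lacking a peak in a list were Dlk1, a Delta-like protein without the domain that activates Notch, in CTX, Hes2 in MGE and CTX, and Hes3 in CTX. Dlk1 had 343 covered bases in MGE, 1902 in LGE and 2411 in CGE. Hes2 had 917 in LGE and 434 in CGE, and Hes3, a Hes gene of early neural progenitors, had 466 in MGE, 603 in LGE and 1192 in CGE.

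In the top 10% of all 4 lists were 6 of the 47. The share of all genes in the top 10% of all 4 lists was not counted, and it can be no more than the 9.99% of LGE and CTX. Lfng and Mfng, glycosyltransferases that tune which ligand a Notch receptor answers, had 2883, 4080, 4178 and 3668 bases and 3010, 2796, 3042 and 2387 bases in the order MGE, LGE, CGE and CTX. Fbxw7, part of the ubiquitin ligase that clears the active Notch fragment, had 1960, 4263, 5229 and 2269 in that order. Maml3, a coactivator of the Rbpj complex, had 2555, 3240, 3450 and 2304. Hes6, a Hes relative that opposes Hes1 and is expressed in differentiating neurons, had 2255, 2354, 2507 and 2202. Hes7, the segmentation clock gene of the somites, had 3217, 4004, 3973 and 3229, but without bases nearer to another protein-coding gene it stood at percentiles of 63.2 to 71.7. The 10 genes of receptor cleavage, which include the gamma-secretase subunits, had no member in the top 10% of any list. For 10 genes this is near the share of all genes, 10.0% in MGE and CGE and 9.99% in LGE and CTX. The median percentile of these genes was between 63.3 and 78.6.

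**Figure D5:**
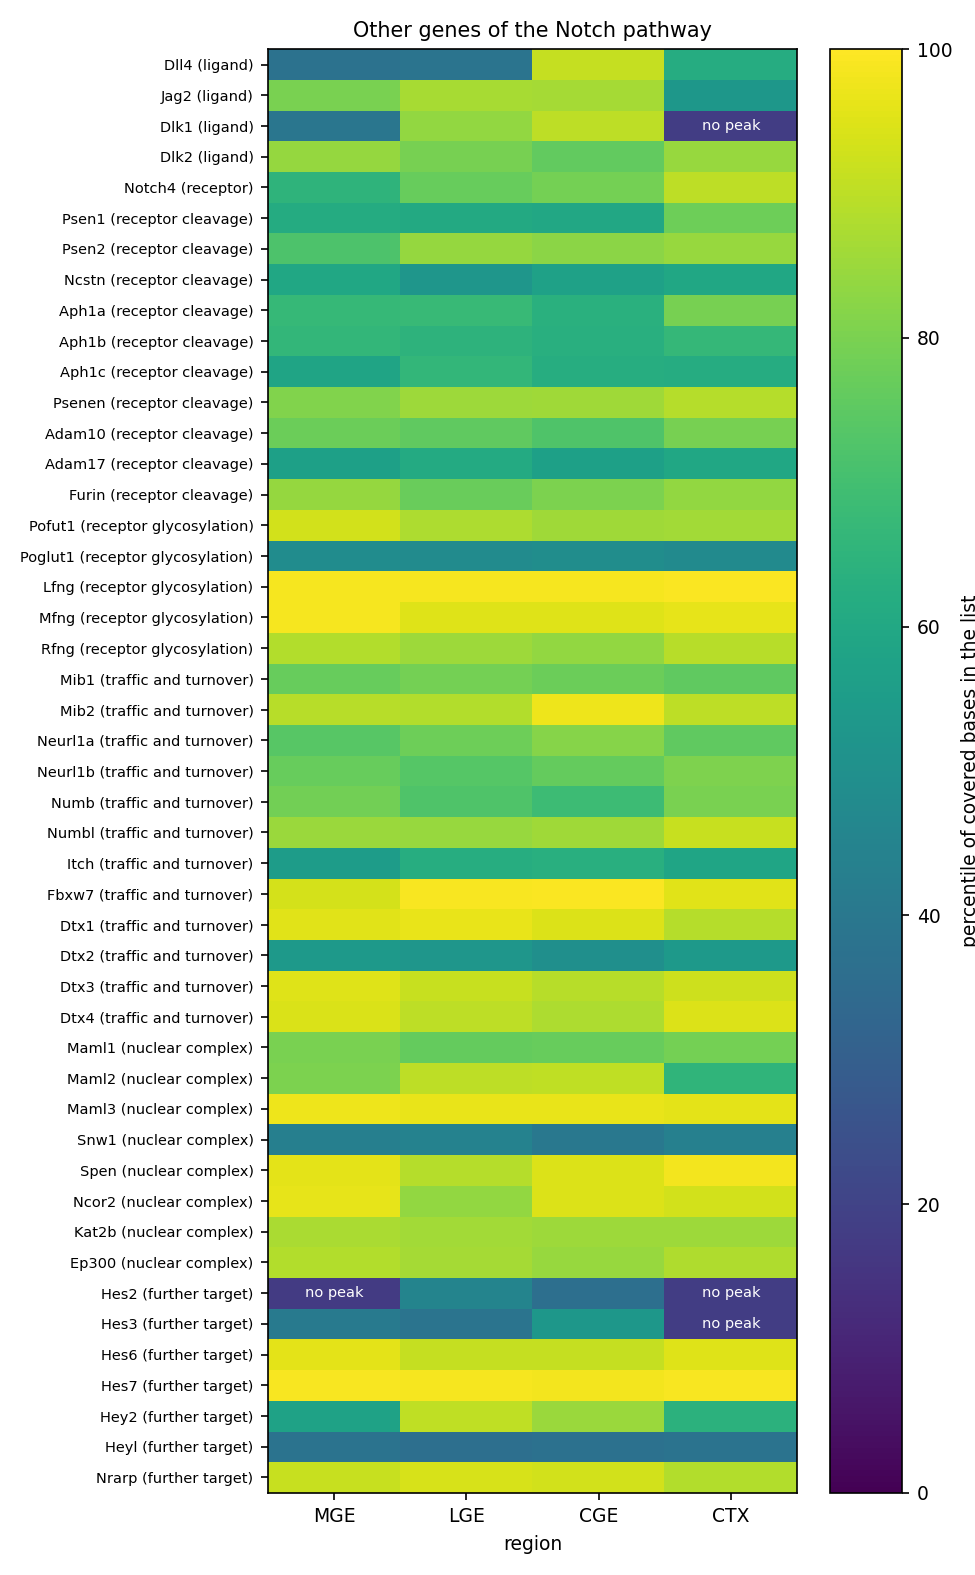
Percentile of covered bases (colour, 0 to 100) of the 47 other pathway genes in the 4 lists, with the class of each gene in brackets. Lfng, Mfng, Fbxw7, Maml3, Hes6 and Hes7 are in the top 10% of each list, and cells without a peak are labelled.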

How the data were processed

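H3K4me3 CUT&Tag libraries of MGE, LGE, CGE and CTX were analysed as 1 deposited list of broad peaks per region. The authors aligned reads with Bowtie2 to GRCm38/mm10, removed duplicates with Picard, merged replicates and called broad peaks with MACS. SAMtools and deepTools are also named in their processing notes. The MACS version and threshold are not given in the sources used here. Each deposited peak carries the authors' fold (a ratio to background), −log10 p and −log10 q, and a score made from the last. The fold and −log10 q were used only as ranks, as descriptions or as a filter within a list.

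Peaks overlapping a window by at least 1 bp were counted within 5 kb of every TSS of a gene in GENCODE M21 (55450 genes, 21951 protein-coding), with positions made 1-based. Covered bases were ranked among protein-coding genes of the list, ties sharing their mean rank. The top 10% is the 90th percentile and above. Analysis used Python 3.11.15 with scipy 1.17.1, pandas 2.3.3 and numpy 2.4.6, and plots were made in matplotlib 3.10.9. Covered bases and percentiles were tested on simulated data and matched in 200 of 200 runs. Without replicate lists, no test was run. The methods give a sequencing depth per replicate, but the files hold no reads per peak, so the precision of peak edges could not be given.

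The members, gene lists and thresholds were chosen with earlier results of these data known. Named genes were the 10 members, wider pathway genes lacking a peak in a list or in the top 10% of all lists, and genes sharing a peak or with a TSS within 5 kb. Markers named in the check of regions come from the marker list. Counts of 3 or more peaks, the search far from TSSs and 2 alternatives (principal TSSs only, bases nearer another protein-coding gene left out) were chosen after the values were seen. The other 10 alternatives were windows of 2 and 10 kb, the gene 5′ end, coding TSSs, −log10 q from 2 upwards, list lengths set equal at 17284 peaks by fold, joining peaks under 1 kb apart, a common shortest width of 243 bp, ranks among genes with a peak, and at least 50% of a peak in the window.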

Additional observations from a re-analysis of the deposited data

How the results depend on the processing

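No paired analysis was possible because each list already pools the replicates, which were merged before peaks were called, and for the same reason no replicate could be left out. Of 187 counts recomputed under the alternatives, 160 stayed within 1.5 times of the reported count and 27 did not, most of them counts of 0 to 2 members or lists. Keeping the 17284 peaks of highest fold in each list changed most. It left 6 members with a peak in MGE, 1 in the top 10% in MGE and 3 in CTX, 4 highest in CGE by percentile, 6 with a range of 20 or more, 4 standing 10 or more above CTX and 2 below, and receptors as the highest class in 1 list. The largest peaks of most members are of low fold in their list, and this setting removes peaks of low fold from the longer lists. The number of members with a percentile range of 20 or more (1) became 2 with a 10-kb window, 0 with peaks under 1 kb apart joined, 2 with a common shortest width, 3 when ranked among genes with a peak and 0 without bases nearer another gene. The member above CTX (Hey1) was no longer there, 0 in all, with joined peaks or without bases nearer another gene. The member below CTX (Hes1) was no longer there, 0 in all, with the gene 5′ end only, principal TSSs only or without bases nearer another gene. The lists in which targets ranked highest (1) became 0 with windows of 2 or 10 kb, 2 with a −log10 q of at least 2, 2 with joined peaks and 0 without bases nearer another gene. Members highest in CGE by percentile (2) became 1 with a 10-kb window, the gene 5′ end or coding TSSs. The gene 5′ end left 5 members in the top 10% in CGE, with Notch1 and Rbpj, which are marked at internal starts, among those lost. Causes other than those named were not tested. The reads behind each peak are not in the files, and a missing peak says only that none was called.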

Other observations

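Peaks more than 2 kb from every annotated TSS were looked for from 50 kb before to 50 kb after each member, a search chosen after the values near TSSs were seen. The 4 lists gave 35 separate intervals at 8 members, and none at Dll3 and Jag1. Of these, 18 were in 1 list, 9 in 2, 2 in 3 and 6 in all 4. A list is not counted where a longer peak at a TSS reaches into the interval. The Notch1 interval chr2:26500605-26501144 is thus counted for MGE and CTX only, though the LGE and CGE peaks at the TSS reach into it. MGE had 29 peaks more than 2 kb from every TSS, LGE 9, CGE 11 and CTX 17. Of all peaks in these lists 36.9%, 17.02%, 18.2% and 29.1% were this far from a TSS. The total of peaks in the searched regions was not counted, so the counts cannot be set against these shares. Nor was the share of such intervals found in all 4 lists counted for other genes. The 6 intervals found in all 4 lists included 2 inside Notch1, at chr2:26485220-26486308 and chr2:26487243-26488015, 15807 bp or more past the principal TSS. Another lay inside Notch3, at chr17:32143155-32144597, 22255 bp past the TSS. Hes5 had 1 upstream, at chr4:154945545-154946868, 14055 bp from the nearest TSS. Hey1 had 1 at chr3:8684941-8685531, 17685 bp upstream of its principal TSS but 5464 bp from the nearest annotated TSS, which is not a start of Hey1. The last is the upstream Dll1 peak described above. Hes5 had further intervals between it and the gene, at chr4:154948368-154949808 in MGE, LGE and CTX and at chr4:154952740-154953274 in MGE, CGE and CTX. Which genes these intervals act on was not tested.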
